A study of Nicotiana tabacum with 30 samples.

Results

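M28 leaves between 4 and 8 h of drought are described here from 6 of the 30 libraries of the series, 3 taken at 4 h and 3 at 8 h. The libraries were chosen by their labels for genotype and time, and gene expression was compared as M28 8 h against M28 4 h. M28 is a tobacco (Nicotiana tabacum) line obtained from the flue-cured cultivar K326 by chemical mutagenesis with ethyl methanesulfonate, which leaves many point mutations scattered over a genome, and the submitters describe it as the more drought resistant of the pair. M28 4 h and M28 8 h are leaves of such plants after 4 and 8 h of the treatment labelled drought. K326 4 h and K326 8 h, 3 libraries each, are the unmutagenized cultivar at the same times and serve as the comparison, and the M28 leaves at 0, 1 and 2 h give the earlier course. The protocol describes seedlings grown in pots under a long-day light cycle and then either left to dry or given 200 mM mannitol. Which of these a library had is not in its label. Watered leaves were analysed here at 0 h only, which means that hours of drought and time of day cannot be told apart. Separate plants are not named for each library, and p-values therefore measure a spread between samples that may in part be technical.

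A leaf that loses water raises its abscisic acid, closes its stomata and takes in less carbon dioxide. Transcripts for photosynthesis usually fall as drought goes on, while those for protective proteins, osmolyte synthesis and hormone signalling rise. Many abundant leaf transcripts also follow the circadian clock and the light period, with peaks at set times of day. The table gives genes by ID only, and none of its 35519 IDs was found in the RefSeq gene table of the tobacco assembly ASM71507v2, so which of these functions the genes below belong to is not known here. For the same reason the leaf label could not be set against leaf marker genes. Genes are named by ID, with 2 in each direction for each comparison.

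Expression was given as FPKM (a fragment count corrected for gene length and for library output), and 19599 genes that averaged 1 FPKM or more across the 30 libraries were tested on the log2(FPKM + 1) scale. FPKM totals ran from 773343 to 785204 at 4 h and from 753424 to 766250 at 8 h. The depth in reads is unknown. From the steps between low values, replicate 3 of M28 8 h had a depth of 0.479 relative to M28 4 h replicate 1, and all other libraries lay between 0.891 and 1.25. That library had 13910 IDs at 0, against 12207 to 12412 in the other 5 libraries of the comparison. Its Pearson correlations with the other 8 h replicates over the tested genes were 0.969 and 0.972, and theirs with each other was 0.988. Results are therefore also given without it.

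From 4 to 8 h the M28 leaves changed 5717 genes, 29.2% of those tested, of which 3544 rose and 2173 fell (limma, adjusted p below 0.05). Changes of at least 2-fold were called for 605 genes that rose (3.09%) and 461 that fell (2.35%). At least 4-fold changes were called for 82 and 85 of these. Without M28 8 h replicate 3, 4782 genes were called, and 571 rose and 464 fell at least 2-fold. Of the 605 genes 561 were called upward again without that library, and of the 461 genes 441 were called downward again. The direction of the many small changes depended on scaling: 62% of the called genes were higher in the values as given. The share was 49.5% after quantile normalization, 48.1% with median-of-ratios size factors and 67.7% after rescaling to equal totals.

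The step held more called genes than any of the earlier intervals in M28. Between 0 and 1 h 4548 genes were called (23.2%), between 1 and 2 h 835 (4.26%), and between 2 and 4 h 1782 (9.09%). Changes of at least 2-fold followed the same order, with 662, 95, 201 and 1066 genes. The intervals differ in length and neighbouring ones share libraries, so the counts stand side by side with no test between them.

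**Figure D1:**
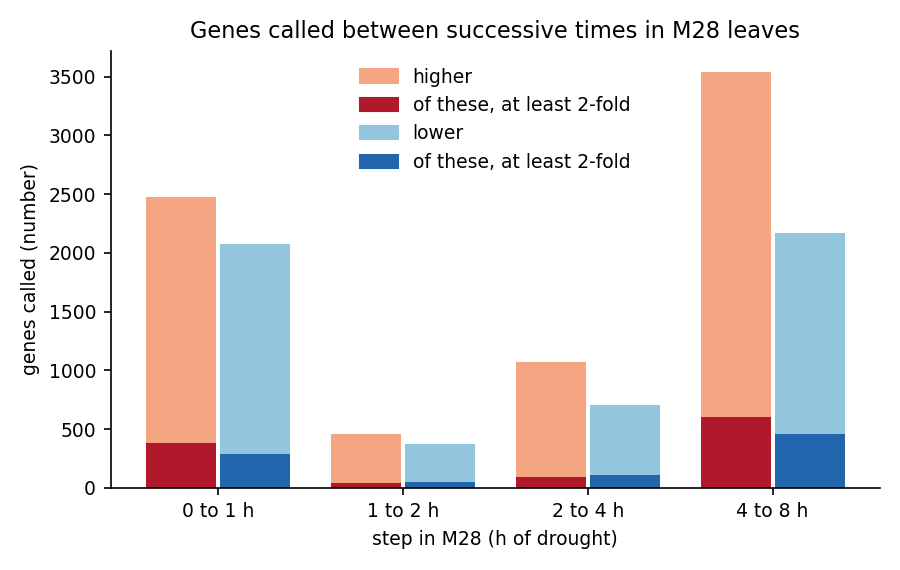
Number of genes called in M28 between successive times (limma, adjusted p below 0.05), higher in red and lower in blue, with the dark part of each bar for changes of at least 2-fold. The bars for 4 to 8 h reach 3544 and 2173 genes, and those for 1 to 2 h reach 460 and 375.

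Of the 605 genes, Nitab4.5_0001229g0010 changed most on the log2 scale. Its FPKM was 0.98, 0.64 and 0.661 in the libraries at 4 h and 60.0, 87.1 and 123.8 at 8 h. It was low in every M28 library before 8 h, with 1.85 FPKM as the highest value at 0, 1 or 2 h, and the 8 h libraries lay far above all of them. The log2 fold change was 5.64 (SE 0.345, limma adjusted p = 1.51e-12), and 5.39 without replicate 3, the highest of the 8 h libraries (adjusted p = 4.58e-11). In K326 the gene went from 8.01 ± 5.04 FPKM (SD, n = 3) at 4 h to 155.9 ± 13.3 at 8 h, a log2 change of 4.27 (limma adjusted p = 5.09e-10).

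Nitab4.5_0000212g0150 followed a different course before it rose. Its libraries at 4 h held 5.69, 6.54 and 5.99 FPKM, and those at 8 h 121.2, 157.6 and 212.2 FPKM. At 0 h it had stood at 16.6 ± 2.23 FPKM (SD, n = 3), above its level at 1, 2 and 4 h, so it went through a trough and ended far above its start. The log2 fold change of the step was 4.51 (SE 0.226, limma adjusted p = 2.58e-14). K326 showed the same shape, from 34.4 ± 2.84 FPKM at 0 h by way of 7.70 ± 0.159 at 2 h to 186.9 ± 11.6 at 8 h.

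Among the genes that fell, Nitab4.5_0000982g0190 had the largest log2 change. It stood at 958.2, 1144 and 953.8 FPKM at 4 h and at 6.93, 5.69 and 11.0 FPKM at 8 h, with no library of one time near the other. Before that it had gone from 407.8 ± 192.5 FPKM (SD, n = 3) at 0 h to 1480 ± 123.5 at 2 h. The log2 fold change from 4 to 8 h was -6.88 (SE 0.241, limma adjusted p = 1.69e-17).

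Nitab4.5_0000495g0040, among the most abundant transcripts of the leaf, held 2468, 2824 and 2280 FPKM at 4 h. At 8 h its libraries held 24.3, 20.5 and 53.6 FPKM, the last in the shallow replicate 3. The log2 fold change was -6.34 (SE 0.246, limma adjusted p = 1.24e-16) with that library and -6.75 without it. At 0, 1 and 2 h the gene had a mean of 3171, 3006 and 4445 FPKM, so the step began from a level below that at 2 h. In K326 it went from 2052 ± 139.9 to 39.5 ± 8.05 FPKM (SD, n = 3).

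**Figure D2:**
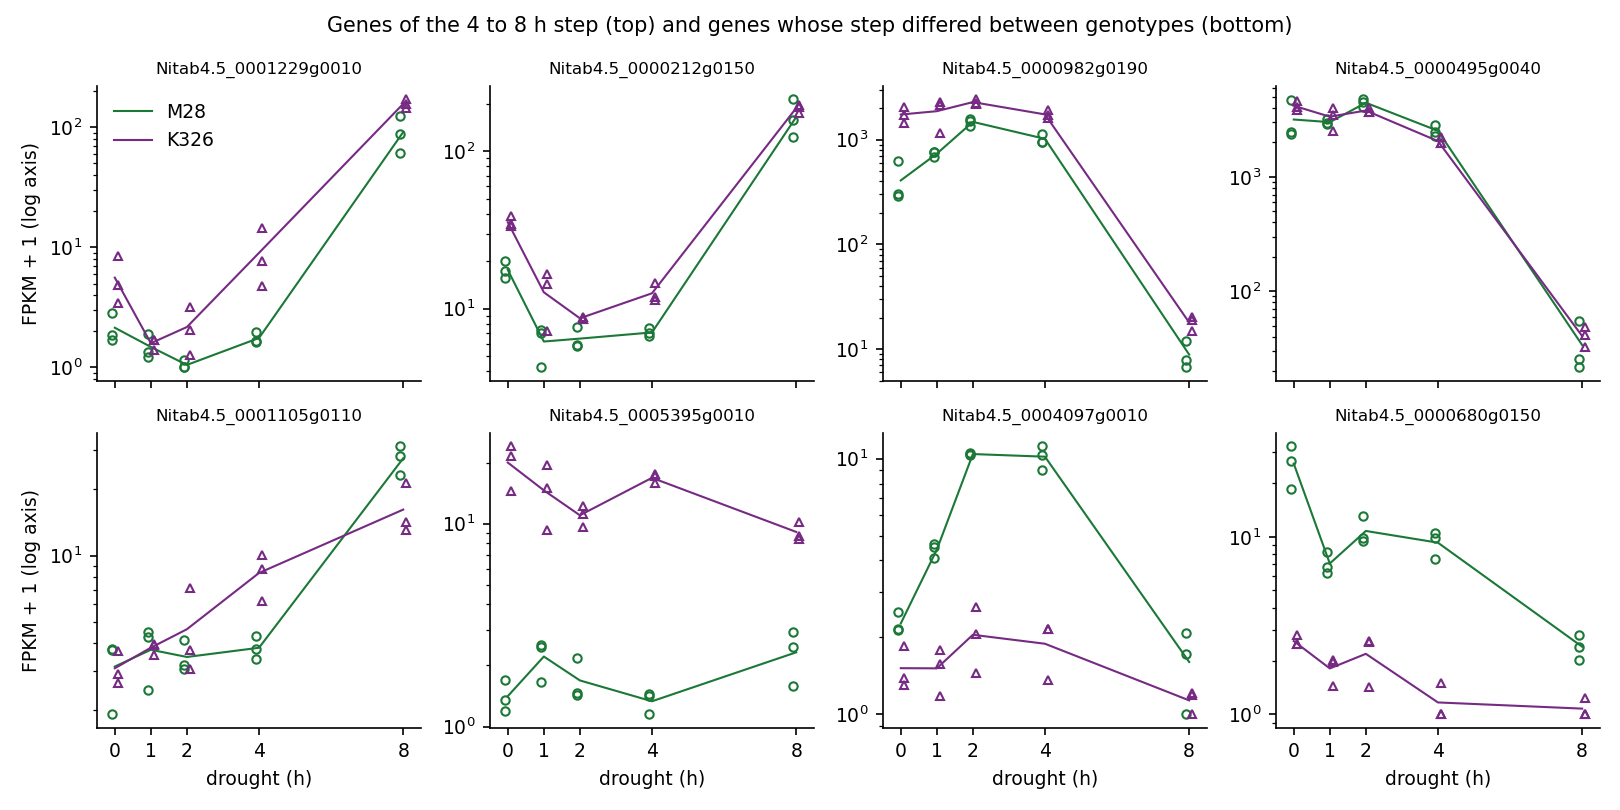
FPKM + 1 (log axis) against hours of drought for the 4 genes named for the step (top row) and the 4 named for a different step in the genotypes (bottom row). Circles are M28 libraries, triangles K326 libraries, and lines join group means. In the top row both genotypes change steeply from 4 to 8 h, while in the bottom row the curves of M28 and K326 differ in level or slope.

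The medians over the strongly changed genes kept a nearly level course up to 4 h and left it by 8 h. Single genes could move earlier in either direction, as the counts below for 2 and 4 h show. Over the 605 genes that rose at least 2-fold, the median of log2(FPKM + 1) was between 2.98 and 3.30 in the M28 libraries of 0, 1, 2 and 4 h and between 4.69 and 4.82 in those of 8 h. For the 461 genes that fell, it was between 4.496 and 4.88 up to 4 h and between 2.97 and 3.05 at 8 h. These lists were chosen on the 4 and 8 h libraries, so that gap is a description of them. The 9 libraries at 0, 1 and 2 h entered the choice only through the filter on the mean and the estimate of the spread, but the 8 h values chose the genes, so positions at 8 h are also given as a description, with the share over all genes beside them. For 478 of the 605 genes (79.0%) all 3 libraries at 8 h lay above all 9 of these, against 22.2% of all tested genes. For 360 of the 461 genes (78.1%) they lay below all 9, against 10.0% of all tested genes. The other 127 and 99 genes overlapped their earlier range at 8 h, apart from 2 falling genes that stayed above it.

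**Figure D3:**
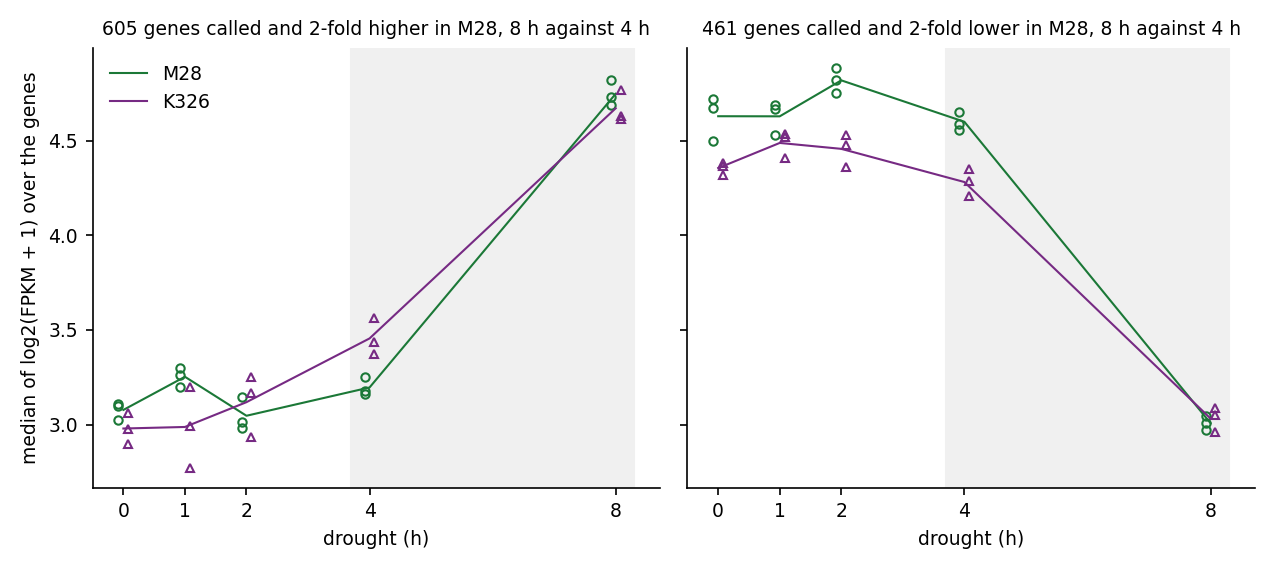
Median of log2(FPKM + 1) over the 605 genes that rose (left) and the 461 that fell (right) at least 2-fold from 4 to 8 h in M28, in every library, against hours of drought. Circles are M28, triangles K326, lines join group means and the shaded span is the interval that chose the lists. Levels at 8 h lie between 4.69 and 4.82 on the left and between 2.97 and 3.05 on the right in M28.

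A smaller number of genes had left their earlier range at 4 h already, and a part of these returned to it by 8 h. In 50 of the 605 genes that rose (8.26%, against 5.02% of all tested genes), the 4 h libraries lay below all 9 earlier ones. In 28 of these 50 the 8 h libraries overlapped the earlier range (4.63% of the list, against 1.6% of all tested genes). In 64 of the 461 genes that fell (13.9%, against 9.95%), the 4 h libraries lay above all earlier ones, and in 47 of these the 8 h libraries overlapped the earlier range again (10.2%, against 3.27%). For 93 of the 461 genes (20.2%, against 3.26%) the libraries at both 4 and 8 h lay below all 9. For 79 of the 605 genes (13.1%, against 6.56%) they lay above all 9 at both times. Because 4 h values entered the choice of genes, which favours low values at 4 h among the rising genes and high ones among the falling, these counts carry no test.

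Responses at 2 h against 0 h compared libraries that the step did not. Both came from the same fit and have the estimate of each gene's spread in common, so the shares below carry no test. Of the 605 genes that rose from 4 to 8 h, 92 were called higher at 2 h (15.2%, against 11.5% of all genes) and 113 lower (18.7%, against 12.6%), and their median log2 change by 2 h was -0.02, as it was over all genes. Of the 461 genes that fell, 150 were called higher at 2 h (32.5%) and 77 lower (16.7%), with a median log2 change of 0.19. The falling genes thus included 150 that had first gone up and then down, and the gene Nitab4.5_0000982g0190 above had this shape. No call at 2 h was made for 400 and 234 genes of the 2 lists (66.1% and 50.8%, against 75.9% of all tested genes).

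The 100 most abundant transcripts together held a smaller share of the total after the step. These genes, ranked by their mean over all libraries, held 26.0, 27.4 and 26.3% of the FPKM total at 4 h and 19.3, 19.98 and 19.7% at 8 h, without overlap. Most libraries in that mean were taken before 8 h, which favours genes that were high then and tilts the list towards a fall. The share, the calls and the median change of these genes are therefore given as a description. Of these 100 genes 81 were called, 62 lower and 19 higher, against 29.2% called among all tested genes, and 45 fell at least 2-fold while 5 rose that far. Their median log2 change was -0.75, against 0.05 over all tested genes. The 10 most abundant genes held 8.09% ± 0.126 (SD, n = 3) and 7.60% ± 0.222 of the total, a difference of -0.488 percentage points beside -6.93 for the 100, so little of the loss lay in those 10. The number of genes that together hold 50% of the total went from 791, 730 and 777 to 1031, 985 and 1059. Each difference had p = 0.1 by a two-sided exact permutation test, the smallest p that 3 against 3 libraries can give, and 0.15 after Benjamini-Hochberg adjustment over 3 measures. For the share of the 100 genes this p carries no weight, since the ranking tilts that share towards a fall. Genes with at least 1 FPKM numbered 19643 ± 89.6 (SD, n = 3) at 4 h and 19695 ± 24.4 at 8 h, and the libraries overlapped (exact permutation p = 0.4).

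The genes that fell at least 2-fold lost more FPKM in sum than the genes that rose gained. The 461 genes summed to 118773 FPKM at 4 h and 32393 FPKM at 8 h, and 10 of them made up 35% of the loss. The 605 genes summed to 17602 and 50373 FPKM, and 10 of them made up 25.2% of the gain. As shares of the total, the falling genes ranged from 14.8 to 15.9% in the 4 h libraries and from 4.11 to 4.48% in those of 8 h. In the M28 libraries of 0, 1 and 2 h they had held 14.2 to 18.6%. The share of the rising genes was 2.19 to 2.33% at 4 h, 6.59 to 6.70% at 8 h and 2.41 to 3.37% in the libraries of 0, 1 and 2 h.

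**Figure D4:**
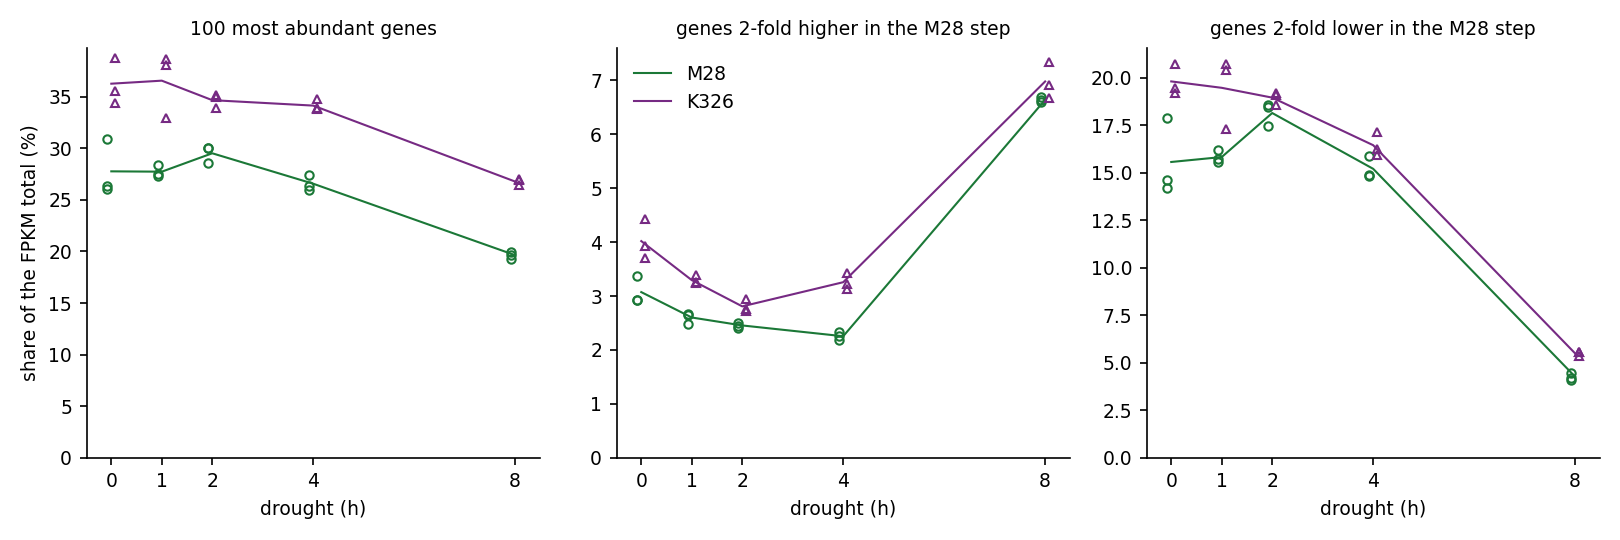
Share of each library's FPKM total (%) against hours of drought for the 100 most abundant genes, the 605 genes that rose and the 461 that fell at least 2-fold from 4 to 8 h in M28. Circles are M28 libraries, triangles K326 libraries and lines join group means. The falling genes go from a mean of 15.2% to 4.27% in M28 and from 16.5% to 5.497% in K326.

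How often a gene was called depended on its level. Among 4999 genes with a mean of 1 to 5 FPKM, 16.5% were called, among 7813 genes of 5 to 20 FPKM 27%, among 5605 genes of 20 to 100 FPKM 39%, and among 1182 genes of 100 FPKM or more 50.6%. The balance of directions shifted with level too. In the lowest class 145 genes rose and 76 fell at least 2-fold, and in the highest 53 rose and 95 fell. A gene's level is its mean over all libraries, most of them before 8 h, so falling genes tend to sit in higher classes. The balance of directions is thus partly built into the classes. Low genes are measured with less precision and the added 1 FPKM shrinks their changes, so the shares called in the classes do not compare how often genes of each class responded. No gene listed at 0 in all 3 libraries at 4 h reached 1 FPKM in all 3 at 8 h, and 1 gene did the reverse, so nearly all of the called changes were in genes detected at both times.

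The same interval in K326 shared no library with that in M28. The K326 libraries entered the choice of genes through the filter on the mean and through the estimate of each gene's spread, which the calls in M28 and K326 have in common. Of the 605 genes that rose at least 2-fold in M28, 519 were called higher in K326 (85.8%, against 19.4% of all tested genes) and 0 lower. Of the 461 genes that fell, 391 were called lower in K326 (84.8%, against 8.57% of all genes) and 0 higher. Without M28 8 h replicate 3 the shares were 87.2% of 571 and 84.5% of 464 genes. Median log2 changes in K326 were 1.06 and -1.13 for these lists, beside 1.32 and -1.38 in M28, where the choice of genes raises the size. Chosen the other way round, the 427 genes that rose at least 2-fold in K326 had medians of 1.27 in K326 and 1.33 in M28, and the 354 that fell had -1.31 and -1.41. In both choices the M28 median was the larger in size, a difference that was not tested. Of the genes with a 2-fold rise, 322 were shared, which is 53.2% of the M28 list and 75.4% of the K326 list. Of those with a 2-fold fall, 282 were shared, 61.2% and 79.7% of the lists. Over all 19599 tested genes, the M28 lists are 3.09% and 2.35%, and the K326 lists hold 427 and 354 genes.

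The lists chosen in M28 also moved in the K326 totals. From 4 to 8 h the share of the falling genes in K326 went from 16.5% ± 0.619 (SD, n = 3) to 5.497% ± 0.122 of the total. That of the rising genes went from 3.26% ± 0.151 to 6.98% ± 0.341. Neither pair overlapped, with p = 0.1 by a two-sided exact permutation test, the smallest it can give. Across the tested genes, which share libraries and are no replicates of each other, the log2 changes of the step in M28 and K326 had a Pearson correlation of 0.835, and of 0.837 without M28 8 h replicate 3.

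**Figure D5:**
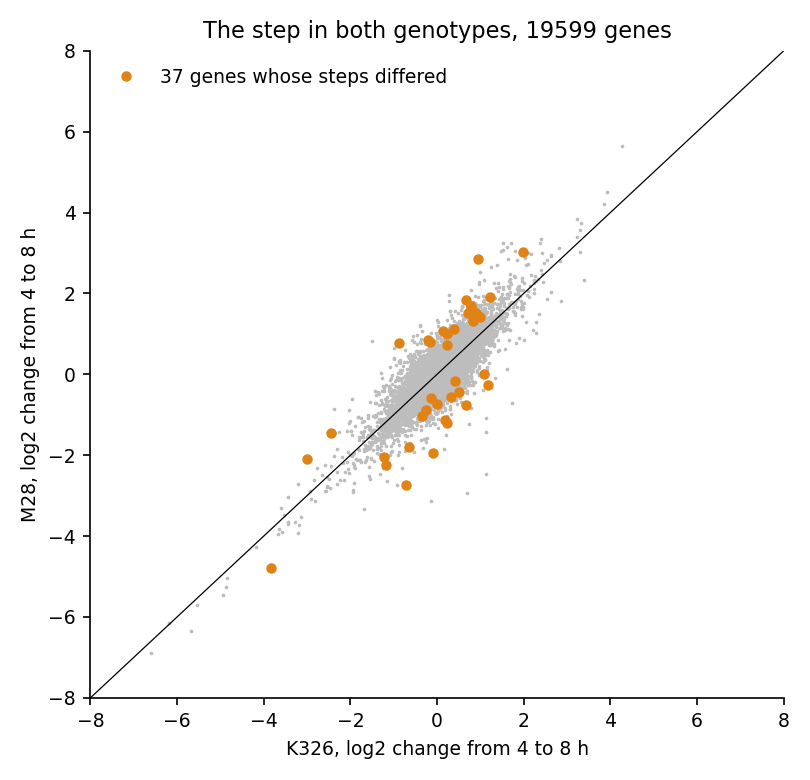
Log2 change from 4 to 8 h in M28 (vertical) against that in K326 (horizontal) for 19599 genes, grey, with the line of equal change. Orange points are the 37 genes whose steps differed by limma (adjusted p below 0.05), and most genes with large changes lie near the line in both directions.

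Whether the step itself differed between the genotypes was tested as a difference of the log2 changes, M28 minus K326. It was called for 37 of 19599 genes (0.189%), 19 with the higher change in M28 and 18 with the lower, and 15 of them differed at least 2-fold. At an unadjusted p under 0.05 there were 1685 of 19599 genes, where a share of 0.05 would be expected with no difference between the genotypes. The difference had a median SE of 0.19 on the log2 scale, and 90% of the genes had differences between -0.45 and 0.42, so smaller differences between the genotypes could have passed unseen. The count is unsteady: it was 27 without M28 8 h replicate 3, 22 of these among the 37, 25 without M28 8 h replicate 1 and 29 when K326 4 h replicate 1 was dropped. Dropping M28 4 h replicate 1, 2 or 3 gave 10, 20 or 13 genes, and dropping M28 8 h replicate 2 gave 11. Leaving out K326 4 h replicates 2 and 3 gave 7 and 11, and leaving out K326 8 h replicates 1, 2 and 3 gave 22, 12 and 12. After median-of-ratios scaling it was 17, after quantile normalization 93 and with library weights 105.

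Of the 37 genes, 26 moved the same way in both genotypes and 11 had changes of opposite sign. The change in M28 was the larger in size for 30 of them and that in K326 for 7. In 12 genes both genotypes rose, in 9 both fell, 4 rose and 6 fell in M28 with no call in K326, and 3 rose in K326 with no call in M28. Opposite calls were made for 3 genes, 1 of which rose in M28 and 2 in K326. The M28 step also had more called changes of at least 2-fold over all tested genes than the K326 step, 1066 against 781. How often all tested genes had the larger change in M28, or changes of the same sign, was not computed. With 1 library left out 7 to 29 genes were called, so the counts in this list are as unsteady as the list.

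Nitab4.5_0001105g0110 had the largest positive difference. In M28 it held 2.39, 2.75 and 3.31 FPKM at 4 h and 27.4, 22.3 and 30.3 FPKM at 8 h, without overlap. K326 libraries held 7.74, 5.25 and 9.03 FPKM at 4 h and 12.1, 20.3 and 13.2 FPKM at 8 h, so K326 was higher at 4 h and lower at 8 h. The log2 changes of 2.85 and 0.95 differed by 1.91 (SE 0.405, limma adjusted p = 0.0418). Without M28 8 h replicate 3 the difference was 1.81 and no longer called, with an adjusted p of 0.097. Leaving out any other single library of the 12 gave limma adjusted p values of 0.0521 to 0.149. A pseudocount of 0.1 FPKM (0.115), no filter (0.0649) and median-of-ratios scaling (0.0509) ended the call too.

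Nitab4.5_0005395g0010 was chiefly a gene of K326. It held 16.1, 14.8 and 16.5 FPKM in K326 at 4 h and 9.15, 7.44 and 7.72 at 8 h, but 0.442, 0.408 and 0.148 FPKM in M28 at 4 h and 1.48, 0.578 and 1.91 at 8 h. M28 thus stayed under 2 FPKM in every library of these times. The difference of the log2 changes was 1.65 (SE 0.348, limma adjusted p = 0.0414), and 1.47 without M28 8 h replicate 3 (adjusted p = 0.108). Leaving out 10 of the other 11 libraries 1 at a time also ended the call, with limma adjusted p values of 0.0609 to 0.14, and it remained without M28 8 h replicate 2 (0.019). It was lost as well with a pseudocount of 0.1 FPKM (0.0683), without the filter (0.0602), with equal totals (0.0525), with median-of-ratios scaling (0.0509) and with the replicate block (0.0587).

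In the other direction, Nitab4.5_0004097g0010 held 9.32, 8.05 and 10.2 FPKM in M28 at 4 h. At 8 h the values were 0.723 and 1.09 FPKM, and the gene was listed at 0 in the shallow replicate 3. M28 had carried it up from 1.27 ± 0.211 FPKM (SD, n = 3) at 0 h to 9.43 ± 0.098 at 2 h. No K326 library of any time exceeded 1.63 FPKM. The gene was called lower in K326 too, from a mean of 0.89 FPKM at 4 h to 0.135 at 8 h. That log2 change was -0.709 (limma adjusted p = 0.0256), at levels where the added 1 FPKM shrinks changes. The difference of the log2 changes was -2.02 (SE 0.334, limma adjusted p = 0.00698), and -1.71 without replicate 3 (adjusted p = 0.0144). With a pseudocount of 0.1 FPKM it was -2.22 with an adjusted p of 0.491.

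Nitab4.5_0000680g0150 had a similar contrast of levels. Its M28 libraries held 8.80, 6.47 and 9.55 FPKM at 4 h and 1.40, 1.04 and 1.79 at 8 h. In K326 it was at 0.505 FPKM in replicate 1 and listed at 0 in the others at 4 h, and at 0.235 FPKM in replicate 3 and listed at 0 in the others at 8 h. The difference was -1.85 (SE 0.325, limma adjusted p = 0.0123), and with a pseudocount of 0.1 FPKM the adjusted p was 0.354. The call was also lost without M28 4 h replicate 1 (limma adjusted p = 0.0501) or 3 (0.052), M28 8 h replicate 2 (0.056), K326 4 h replicate 2 or 3 (0.0573 each) or K326 8 h replicate 3 (0.0539). Of the 37 genes, 4 stayed at means under 2 FPKM at both times in 1 genotype, 3 of them in K326 and 1 in M28, where the scale leaves little room for a fall.

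Gene IDs carry a scaffold and a gene number that rises in steps of 10, which gives an order along each of 2996 scaffolds. Next neighbours among the tested genes had weakly alike steps in M28, with a Pearson correlation of 0.075 over 16603 pairs, and of 0.007 over 10183 pairs 4 places apart. K326 gave 0.070 and 0.013. The genes are not independent, neighbours can be copies or pieces of one gene, and a correlation this small is given as a description only. Of 592 rising genes with a tested neighbour, 58 stood next to another gene that rose at least 2-fold (9.8%, against 5.26% of all tested genes). For 446 falling genes it was 55 (12.3%, against 3.92%). Runs of 3 neighbours that rose together occurred 2 times and runs of 3 that fell together 1 time, with no longer run. How many runs a random order of the genes would give was not computed.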

How the data were processed

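The authors deposited 1 table of FPKM values with a column per library, replicates not pooled. The submitters' processing notes name HISAT2, featureCounts, FastQC and Trimmomatic. Their versions and options, how FPKM was computed and on which genome build are not given in the sources used here. That the unit is FPKM rests on the authors' name for the table and on totals that differ between libraries. TPM over a larger gene set would look alike. FPKM divides by library output, so a fall of abundant genes raises others.

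Values were used as deposited, on the log2(FPKM + 1) scale, and this pseudocount understates changes of low genes. Groups came from sample titles. The 10 groups of 30 libraries entered one limma 3.58.1 fit (R 4.3.3, mean-variance trend), with Benjamini-Hochberg adjustment over 19599 genes and calls at an adjusted p below 0.05. The fit was run on simulated data with independent normal noise and changes in few genes of M28 8 h. Those data lack the scaling differences and the shallow library of the real ones, so the run checks the computation only. Whole-library measures had exact permutation tests (SciPy 1.17.1). Named genes were called, changed at least 2-fold, reached 5 FPKM in a group and, for the step, had no overlap between times. They were ranked by size, and the first 2 per direction were taken since IDs have no names. The comparison, rules and lists were chosen with earlier results of these data known. Marker lists could not be matched and were not used.

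Relative depth came from ratios of low values between libraries, using 6192 genes with a mean under 1 FPKM. From 2.8 to 4.24% of ratios fell within 0.002 (log2) of ratios of 1 to 3 whole reads at the best offset, against at most 0.603% at the median offset, so most values are not whole multiples of a read and no counting interval was computed.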

Additional observations from a re-analysis of the deposited data

Results flagged for a closer look

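In a direct test of M28 minus K326, the step from 4 to 8 h was unlike in the genotypes for 37 genes. Largest in size among these were, as differences of log2 changes, Nitab4.5_0001105g0110 (1.91), Nitab4.5_0005395g0010 (1.65), Nitab4.5_0004097g0010 (-2.02) and Nitab4.5_0000680g0150 (-1.85). Groups of 3 libraries are too small to single out one library by its distance from the others.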

How the results depend on the processing

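All counts of called genes for the M28 step stayed within 1.5 times their reported values under each of the 16 alternatives run, and the 4 genes named for it kept their calls. The majority direction did not hold, with 2723 genes higher and 2944 lower after median-of-ratios scaling, against 3544 and 2173 as reported. Quantile normalization gave 2917 and 2973. At least 2-fold, these settings gave 495 higher and 506 lower, and 569 and 476, against 605 and 461. Without 1 library, 4771 to 5358 genes were called, 2917 to 3284 of them higher and 1833 to 2074 lower. The 2-fold counts without 1 library were 1035 to 1139 in all, 571 to 638 higher and 450 to 501 lower. With the replicate block the step had 5598 calls and the difference of the steps 28. Whether replicate numbers pair the samples is not in the labels. Deviations of same-numbered libraries correlated at 0.164, -0.03 and 0.024 in M28 and at -0.033, -0.176 and -0.046 in K326. Those of unlike-numbered libraries lay between -0.141 and 0.129. With 3 libraries a group, such values cannot decide it.

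The difference of the steps was less stable. It was called for 17 genes after median-of-ratios scaling, 93 after quantile normalization and 105 with array weights, and for 7 to 29 with 1 library left out. Its 2-fold count of 15 became 9 without the filter, 7, 23 and 35 under those settings, and 4 to 14 without 1 library. The cause was not tested. Genes with at least 1 FPKM were 52.7 more at 8 h than at 4 h on average, and at 0.5 FPKM the difference reversed to -52.3. The correlation of next neighbours, 0.075, was 0.095 for gene numbers 10 apart. Depth limits low genes, most of all in M28 8 h replicate 3.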
